A study of Mus musculus with 16 samples.

Results

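Chemokine transcripts were examined in mouse primary cortical neuron cultures. The members are 10 genes, Cxcl10, Cxcl1, Cxcl2, Ccl2, Ccl7, Ccl3, Ccl4, Ccl5, Cxcl12 and Cx3cl1, chosen by gene symbol out of 53679 gene symbols, and the FPKM (fragments per kilobase of transcript, scaled to sequencing depth) of their 27 isoforms were summed per gene. Wild-type cortical cells taken at embryonic day 15 were exposed on day in vitro (DIV) 8 to 10 μM tianeptine (TIA), an antidepressant, or to vehicle (VEH), for 24 h. On DIV 9 they underwent 3 h of oxygen-glucose deprivation (OGD), an in vitro model of ischemia, or a sham procedure, and RNA was taken 6 h later. The sham groups are named CONTROL-VEH and CONTROL-TIA and the deprived groups OGD-VEH and OGD-TIA, with 4 cultures in each and 16 in all, numbered 1 to 16 across the groups. The labels call the vehicle cultures untreated. The estimated depth was 19.5 to 25.7 M reads per culture, at which 1 read on a transcript of 1 kilobase is worth 0.0389 to 0.0513 FPKM, so values under about 0.1 FPKM rest on a few reads.

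Chemokines are small secreted proteins that attract leukocytes through G protein-coupled receptors. The inflammatory ones are scarce in resting tissue and are induced through NF-kappaB, AP-1 and interferon-activated factors, whereas the homeostatic ones are made steadily. In brain, CXCL12 guides neural progenitors and interneurons, and the membrane-anchored CX3CL1 (fractalkine) links neurons to microglia, which carry its receptor CX3CR1.

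The 10 genes lie on chromosome 5 (Cxcl10, Cxcl1 and Cxcl2), chromosome 11 (the Ccl genes), chromosome 6 (Cxcl12) and chromosome 8 (Cx3cl1). RefSeq promoter windows were at hand for 6 of the 10, namely Cxcl10, Cxcl1, Cxcl2, Ccl3, Cxcl12 and Cx3cl1, and the 250 bases before the annotated start were searched on both strands. The motifs were the NF-kappaB consensus, the interferon-stimulated response element (ISRE, GAAA repeated after any 2 bases), the AP-1 site TGANTCA, the gamma-activated site (GAS) TTCNNNGAA and the TATA box TATAAA. The NF-kappaB consensus was found in 3 of the 6 windows, those of Cxcl10, Cxcl1 and Cxcl2, and in 7.25% of all 32851 mouse windows of that length. These sequences are shown because they belong to the measured CXC genes whose OGD-VEH cultures all lay above the CONTROL-VEH cultures. They are written 5′ to 3′ on the strand of the gene, with the NF-kappaB, ISRE and AP-1 matches in capitals. Their positions on GRCm38.p6 are chr5:92348890-92349139 on the minus strand for Cxcl10, chr5:90890995-90891240 on the plus strand for Cxcl1 and chr5:90903649-90903870 on the plus strand for Cxcl2, and bases inside an annotated transcript were left out at the 3′ end.
Cxcl10: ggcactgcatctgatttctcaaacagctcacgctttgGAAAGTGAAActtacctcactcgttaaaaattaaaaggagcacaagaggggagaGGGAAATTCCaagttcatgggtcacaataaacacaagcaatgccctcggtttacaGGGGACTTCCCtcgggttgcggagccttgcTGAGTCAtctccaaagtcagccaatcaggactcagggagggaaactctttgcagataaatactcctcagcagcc
Cxcl1: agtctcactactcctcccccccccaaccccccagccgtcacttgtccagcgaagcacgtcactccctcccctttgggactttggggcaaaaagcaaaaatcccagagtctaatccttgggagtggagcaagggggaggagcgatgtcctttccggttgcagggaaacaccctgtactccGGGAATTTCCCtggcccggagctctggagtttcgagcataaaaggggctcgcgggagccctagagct
Cxcl2: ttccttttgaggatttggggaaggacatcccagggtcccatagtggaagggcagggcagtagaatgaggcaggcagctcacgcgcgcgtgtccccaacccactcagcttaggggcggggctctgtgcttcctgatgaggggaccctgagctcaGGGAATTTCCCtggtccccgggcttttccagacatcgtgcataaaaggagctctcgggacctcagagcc
The Cxcl10 window held an ISRE 213 to 204 bases before the start, an NF-kappaB match at 159 to 150, another stretch from 104 to 94 made of 2 overlapping NF-kappaB matches, and an AP-1 match at 74 to 68. Cxcl1 and Cxcl2 each held 1 such stretch, read as NF-kappaB matches on both strands. These lay 71 to 61 and 97 to 87 bases before the RefSeq start, and their printed letters are the same. The printed Cxcl1 and Cxcl2 sequences end 4 and 28 bases short of that start. The ISRE was in 1 of 6 member windows and 2.98% of all windows, the AP-1 site in 1 of 6 and 6.75%, and the TATA box in 1 of 6, that of Cx3cl1, and 12.4%. The Cx3cl1 match lay 6 to 1 bases before the RefSeq start. The isoform Cx3cl1-201 begins further upstream, so this match lies inside the annotated span of that isoform. The GAS was in 0 of 6 member windows and in 7.02% of all windows. Ccl3 and Cxcl12 held none of the 5 motifs. A match is a description of letters and was not tested for binding.

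Without OGD, Cx3cl1 was the most abundant member at 129 ± 43.4 FPKM (SD, n = 4) in CONTROL-VEH. Cxcl12 followed at 8.97 ± 1.38 FPKM, and their ranges did not overlap. The other 8 members stood at 0.236 FPKM or less on average in CONTROL-VEH, and each overlapped with its neighbours in the order. Ccl5 was listed at 0 in all 8 control cultures, and Cxcl2 in all 4 CONTROL-TIA cultures. The plot of the 10 genes by culture shows that the inflammatory members stayed at or under 0.508 FPKM in all 8 control cultures.

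**Figure D1:**
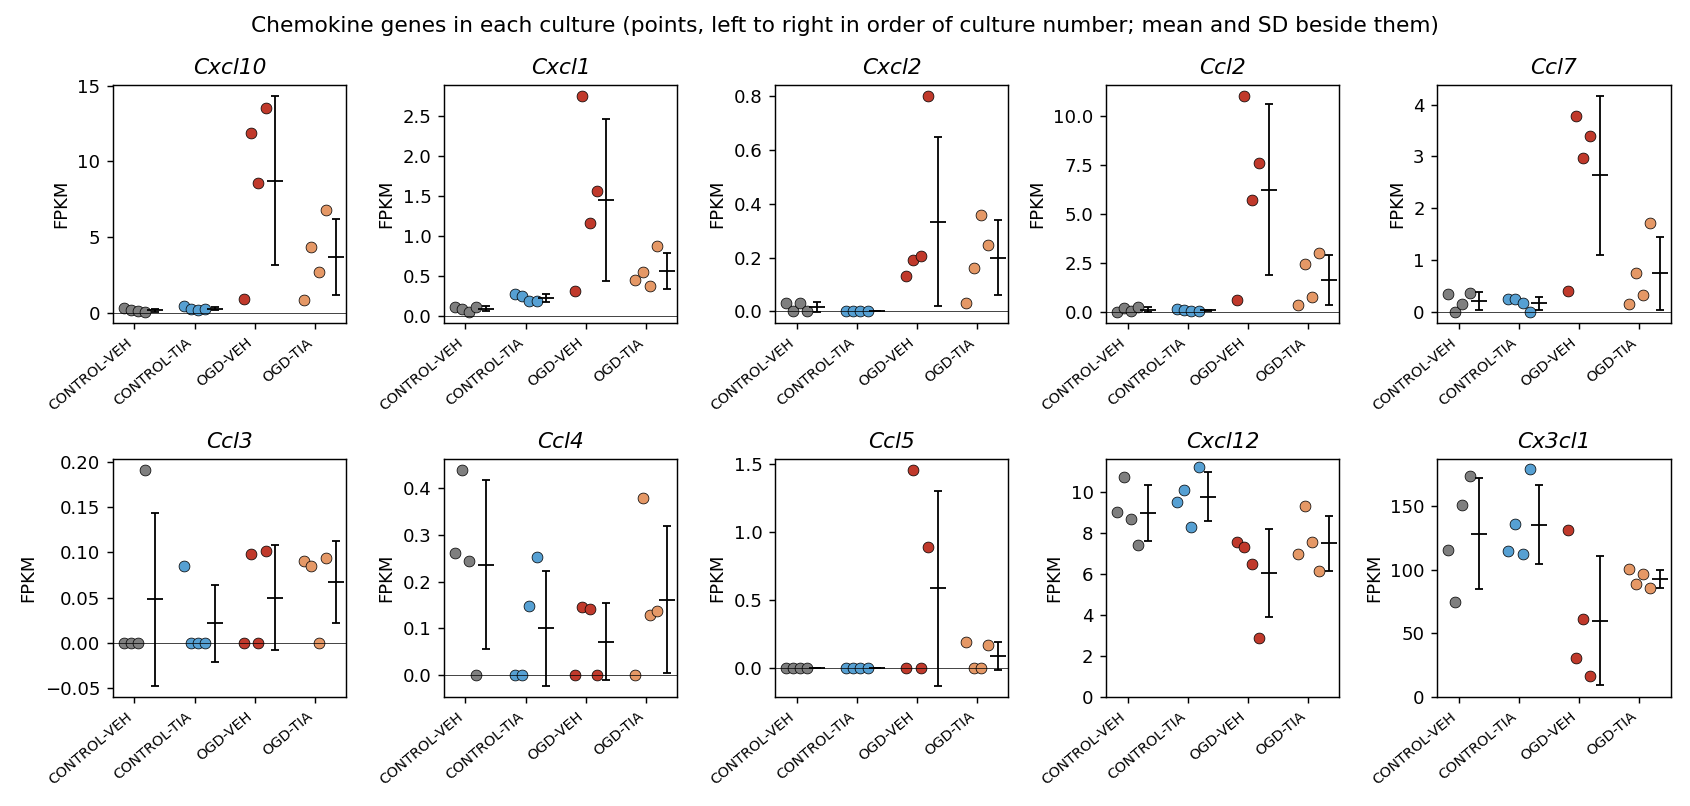
FPKM (vertical axis, linear, its own range per gene) of each chemokine gene in the 4 cultures of each group, with points in the order of the culture numbers and the mean and SD beside them. Cxcl10, Ccl2, Ccl7 and Cxcl1 have 3 high OGD-VEH cultures and 1 low one, at 0.948 FPKM for Cxcl10 in culture 9, while Cxcl12 and Cx3cl1 are lower on average after OGD.

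After OGD with vehicle, 4 chemokine genes were called higher, namely Cxcl10, Ccl2, Ccl7 and Cxcl1, and none was called lower. These 4 were among the 6 members past a filter of a mean of at least 0.5 FPKM, and 2.4% of the 16346 genes tested were called higher by the same rule (adjusted p no greater than 0.05, with a log2 fold change of 1 or more). The median log2 fold change was 2.87 over the 6 members and 0.10 over all genes tested. The 4 genes passed the filter only through OGD-VEH, where they were high, and such a gene had to differ, so the count and the median over the 6 are descriptions. In bulk RNA, more cells of a type and more RNA per cell cannot be told apart.

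Cxcl10 encodes an interferon-inducible ligand of CXCR3 that attracts activated T cells (GRCm38 chr5:92346638-92348889). It stood at 0.328, 0.212, 0.153 and 0.081 FPKM in CONTROL-VEH cultures 1 to 4, and at 0.948, 11.9, 8.61 and 13.5 FPKM in OGD-VEH cultures 9 to 12. Every OGD-VEH culture was above every CONTROL-VEH culture, with culture 9 far below the other OGD-VEH cultures. The log2 fold change of FPKM + 0.1 was 4.47 ± 0.78 (SE; limma, adjusted p = 0.0336; exact permutation p = 0.0286, two-sided, below which 4 against 4 cultures cannot go).

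Ccl2, the monocyte attractant and ligand of CCR2 (chr11:82035571-82037453), was at 0, 0.196, 0.066 and 0.278 FPKM in CONTROL-VEH. In OGD-VEH it reached 0.599, 11.01, 5.73 and 7.57 FPKM. The groups did not overlap, and culture 9 was again the lowest. The log2 fold change was 4.38 ± 0.86 (limma, adjusted p = 0.0347; exact permutation p = 0.0286).

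Ccl7, whose gene is a neighbour of Ccl2 on chromosome 11 and whose product also attracts monocytes (chr11:82045712-82047525), was at 0.347, 0, 0.159 and 0.364 FPKM in CONTROL-VEH. In OGD-VEH it was at 0.400, 3.79, 2.98 and 3.40 FPKM, so that culture 9 lay just above the highest control. Its log2 fold change was 2.98 ± 0.77 (limma, adjusted p = 0.0492; exact permutation p = 0.0286).

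Cxcl1, a ligand of CXCR2 that attracts neutrophils (chr5:90891241-90893115), was at 0.110, 0.085, 0.044 and 0.115 FPKM in CONTROL-VEH. In OGD-VEH it was at 0.310, 2.76, 1.17 and 1.56 FPKM, again without overlap. Its log2 fold change was 2.75 ± 0.59 (limma, adjusted p = 0.0383; exact permutation p = 0.0286).

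The control levels of these 4 genes correspond to only about 2 to 8 reads per CONTROL-VEH culture for Cxcl10, 0 to 5 for Ccl2, 0 to 6 for Ccl7 and 2 to 3 for Cxcl1. In OGD-VEH they correspond to about 20 to 321, 10 to 189, 6 to 64 and 6 to 57 reads. The size of the fold therefore depends on the pseudocount, and for Ccl2 it ranged from 2.35 to 5.66 on the log2 scale over the settings tried with all 8 cultures. The protein-coding isoforms Cxcl10-201, Ccl2-201 and Cxcl1-201 held 97.8, 97.2 and 98.2% of the FPKM of their genes in OGD-VEH, and each alone did not overlap between OGD-VEH and CONTROL-VEH (exact permutation p = 0.0286). Cxcl10 lies inside Art3 and Ccl2 inside Gm17268, both on the opposite strand. Art3 was at 0 to 0.268 FPKM in CONTROL-VEH and OGD-VEH and Gm17268 was listed at 0 throughout, and whether the counting used strand is not given in the sources used here.

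Leaving out any one of the 4 CONTROL-VEH cultures, or OGD-VEH culture 10, 11 or 12, left 0 members called, with 1 to 71 genes called in all. Leaving out OGD-VEH culture 9 gave 5 members called, the same 4 and Cx3cl1 (lower), among 2186 genes. The log2 fold changes were positive in each fit that tested the gene, between 4.10 and 5.33 for Cxcl10, 3.92 and 5.25 for Ccl2, 2.50 and 3.68 for Ccl7 and 2.61 and 3.29 for Cxcl1, with adjusted p between 0.0015 and 0.132 (limma). Cxcl1 was under the filter, and so not tested, without OGD-VEH culture 10.

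Cxcl2, also a CXCR2 ligand (chr5:90903871-90905938), stayed under the filter. It was at 0.033, 0, 0.033 and 0 FPKM in CONTROL-VEH and at 0.131, 0.191, 0.208 and 0.802 FPKM in OGD-VEH, where culture 12 was far above the others. The groups did not overlap (exact permutation p = 0.0286), as in 12.7% of the genes tested. Without a filter the log2 fold change was 1.68 ± 0.51 (limma, adjusted p = 0.227).

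The CC chemokine genes Ccl3 (chr11:83647844-83649355), Ccl4 (chr11:83662584-83664683) and Ccl5 (chr11:83525778-83530518) were barely detected. Ccl5 was listed at 0 in OGD-VEH cultures 9 and 11 and stood at 1.46 and 0.891 FPKM in cultures 10 and 12, about 16 and 10 reads, so the OGD-VEH and CONTROL-VEH groups overlapped at 0. Ccl3 did not exceed 0.192 FPKM in any of the 16 cultures, and Ccl4 did not exceed 0.440 FPKM, reached in CONTROL-VEH culture 2. Neither Ccl3, at 0.048 ± 0.096 FPKM in CONTROL-VEH and 0.050 ± 0.058 in OGD-VEH, nor Ccl4, at 0.236 ± 0.181 and 0.072 ± 0.083, differed detectably at this depth (exact permutation p = 1 and 0.229).

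Cxcl12, the ligand of CXCR4 and ACKR3 (chr6:117168535-117181367), was at 9.03, 10.8, 8.70 and 7.40 FPKM in CONTROL-VEH and at 7.54, 7.31, 6.46 and 2.88 FPKM in OGD-VEH. The groups overlapped through OGD-VEH culture 9, and culture 12 was lowest. The log2 fold change was -0.64 ± 0.30 (limma, adjusted p = 0.168; exact permutation p = 0.0571). Isoform Cxcl12-202 held 97.6% of the FPKM of the gene in CONTROL-VEH and 93.4% in OGD-VEH.

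Cx3cl1 (chr8:94772009-94782427) was at 115, 74.4, 151 and 174 FPKM in CONTROL-VEH and at 131, 30.8, 61.5 and 16.5 FPKM in OGD-VEH. The groups overlapped through OGD-VEH culture 9, which stayed at a control level. The log2 fold change was -1.44 ± 0.59 (limma, adjusted p = 0.122; exact permutation p = 0.0857), and without OGD-VEH culture 9 it was -1.96 (adjusted p = 0.0193).

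The sum for Cx3cl1 mixes isoforms of unlike length. Cx3cl1-201, the full-length protein-coding isoform of 3315 bases, was at 38.8, 37.0, 41.1 and 45.4 FPKM in CONTROL-VEH and at 33.5, 22.8, 22.8 and 16.1 FPKM in OGD-VEH. All OGD-VEH cultures were below all CONTROL-VEH cultures, by 0.81 on the log2 scale (exact permutation p = 0.0286), where 9.95% of the genes tested were separated in that direction. With TIA it was at 40.5, 36.7, 37.9 and 39.4 FPKM without OGD and at 34.7, 30.8, 31.4 and 19.0 FPKM after OGD. The groups were again apart, by 0.45 on the log2 scale (exact permutation p = 0.0286). The 377-base isoform Cx3cl1-205 carried 55.7% of the summed FPKM in CONTROL-VEH yet ranged from 1.34 FPKM in culture 2 to 114 FPKM in culture 4, and was listed at 0 in OGD-VEH cultures 10 and 12. The spread of the summed Cx3cl1 level within groups was thus mostly in the short isoforms, whose values depend on how reads were shared out between isoforms.

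**Figure D2:**
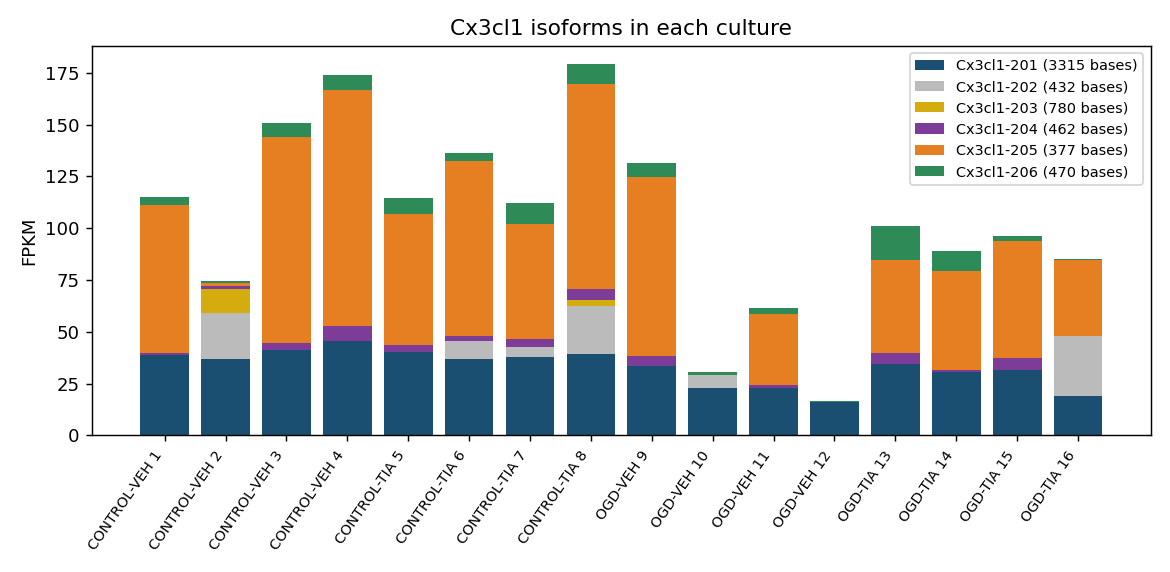
FPKM of each Cx3cl1 isoform (stacked bars, vertical axis) in the 16 cultures, with isoform lengths in the key. The 3315-base isoform at the base of each bar lies between 36.7 and 45.4 FPKM in the 8 control cultures and between 16.1 and 34.7 FPKM in the 8 OGD cultures, while the 377-base isoform varies far more.

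With TIA, no member passed both thresholds after OGD, where 0.0% of 16242 genes were called, although 19.5% reached an unadjusted p under 0.05. Cxcl10 was at 0.508, 0.289, 0.210 and 0.277 FPKM in CONTROL-TIA and at 0.884, 4.396, 2.75 and 6.79 FPKM in OGD-TIA. The groups did not overlap, and the log2 fold change was 2.90 ± 0.56 (limma, adjusted p = 0.108; exact permutation p = 0.0286). Ccl2 was at 0.140, 0.087, 0.075 and 0.064 FPKM in CONTROL-TIA and at 0.344, 2.43, 0.747 and 2.99 FPKM in OGD-TIA. It too did not overlap, at a log2 fold change of 2.79 ± 0.62 (limma, adjusted p = 0.116; exact permutation p = 0.0286).

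Cxcl1 and Cxcl2 were likewise higher in every OGD-TIA culture than in every CONTROL-TIA culture (exact permutation p = 0.0286 for each), as were 9.51% of the genes tested, but both were under the filter. Cxcl1 averaged 0.223 ± 0.046 FPKM in CONTROL-TIA and 0.561 ± 0.221 in OGD-TIA. Cxcl2 was listed at 0 in CONTROL-TIA and at 0.033, 0.160, 0.359 and 0.249 FPKM in OGD-TIA, about 0, 1, 3 and 11 reads. In OGD-TIA the 397-base isoform Cxcl2-204, which retains an intron, held 61.4% of the FPKM of the gene. The protein-coding Cxcl2-201 averaged 0.0075 FPKM there and overlapped with CONTROL-TIA. Ccl7 overlapped, at 0.246, 0.251, 0.177 and 0 FPKM in CONTROL-TIA and 0.164, 0.760, 0.331 and 1.73 FPKM in OGD-TIA (exact permutation p = 0.143).

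Cx3cl1 in OGD-TIA, at 101, 88.9, 96.4 and 85.3 FPKM, was below every CONTROL-TIA culture, at 115, 136, 112 and 179 FPKM. The log2 fold change was -0.52 ± 0.15 (limma, adjusted p = 0.154; exact permutation p = 0.0286), and 6.72% of the genes tested were separated in that direction. Cxcl12 differed by -0.39 ± 0.15 on the log2 scale (limma, adjusted p = 0.223).

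**Figure D3:**
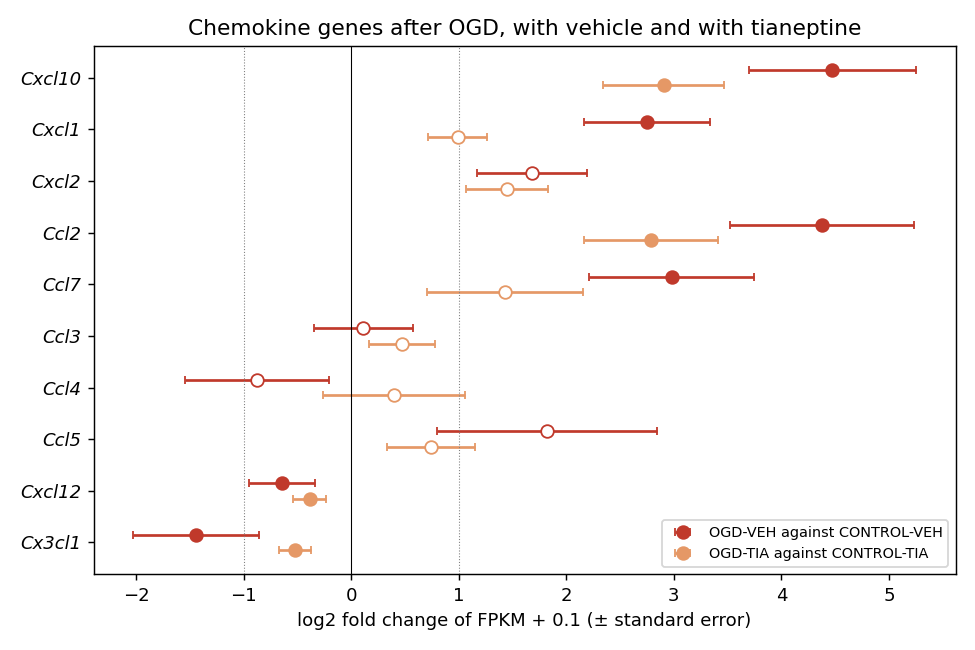
Log2 fold change of FPKM + 0.1 after OGD (horizontal axis, with standard error) for each chemokine gene with vehicle (red) and with TIA (orange). Filled points are genes past the filter, open points are genes under it, and dotted lines mark -1 and 1. Cxcl10 stands at 4.47 with vehicle and 2.90 with TIA, and Cx3cl1 at -1.44 and -0.52.

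Over both arms, in 1 fit of the OGD effect with TIA as a covariate, Cxcl10, Ccl2, Ccl7 and Cxcl1 rose by 3.69 ± 0.53, 3.58 ± 0.58, 2.21 ± 0.56 and 1.87 ± 0.39 on the log2 scale (limma, adjusted p = 0.0012, 0.0016, 0.009995 and 0.0044). They were 4 of 6 members past the filter, where 2.8% of 16313 genes were called higher. These 4 passed the filter only through the OGD cultures, so this count is again a description. Cxcl12 (-0.51 ± 0.17, adjusted p = 0.0353) and Cx3cl1 (-0.98 ± 0.34, adjusted p = 0.0379) passed the p threshold but not the fold threshold in this limma fit, and an adjusted p of at most 0.05 on the lower side was found for 13.4% of the genes. Cxcl10, Ccl2 and Ccl7 stayed called when any 1 of the 16 cultures was left out, and so did Cxcl1 in 15 of 16 such fits, while without OGD-VEH culture 10 it was under the filter. Without a filter Cxcl2 also passed both thresholds, at 1.56 ± 0.29 (limma, adjusted p = 0.0091), on about 0 to 19 reads per culture. Cx3cl1 also passed the fold threshold in 8 of the 16, with a log2 fold change of -1.18 (adjusted p = 0.0089) without OGD-VEH culture 9. This fit uses the same cultures as the comparisons within each arm and is not separate evidence.

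TIA alone was compared without OGD. No gene, and so no member, was called between CONTROL-TIA and CONTROL-VEH by limma (0.0% of 16170 genes, and 3.84% at an unadjusted p under 0.05). Cxcl1 was above in every CONTROL-TIA culture, at 0.277, 0.244, 0.188 and 0.181 FPKM against 0.110, 0.085, 0.044 and 0.115 (exact permutation p = 0.0286), as were 0.965% of the genes tested. These values correspond to about 4 to 8 reads against 2 to 3. Of the 10 member tests in this comparison it was the only one at that p. Cx3cl1 (0.12 ± 0.27 on the log2 scale) and Cxcl12 (0.13 ± 0.14) were the only members past the filter, and both had an adjusted p of 0.999.

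Between OGD-TIA and OGD-VEH, the average level of the 4 genes called after OGD was lower with TIA, but none of the differences was called. Cxcl10 averaged 3.70 ± 2.51 FPKM in OGD-TIA and 8.74 ± 5.58 in OGD-VEH, a log2 difference of -1.03 ± 0.91 (limma, adjusted p = 0.613). Ccl2 averaged 1.63 ± 1.28 and 6.23 ± 4.34 FPKM, at -1.72 ± 0.96 (adjusted p = 0.551). Ccl7 averaged 0.746 ± 0.701 and 2.64 ± 1.53 FPKM, at -1.72 ± 0.81 (adjusted p = 0.551). Cxcl1 averaged 0.561 ± 0.221 and 1.45 ± 1.02 FPKM, at -0.98 ± 0.57 (adjusted p = 0.551).

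Cx3cl1 averaged 92.9 ± 7.11 FPKM in OGD-TIA and 60.01 ± 51.1 in OGD-VEH, at 1.04 ± 0.56 (limma, adjusted p = 0.551), and Cxcl12 7.49 ± 1.35 and 6.05 ± 2.16 FPKM, at 0.38 ± 0.31 (adjusted p = 0.590). All 10 members overlapped between the OGD-TIA and OGD-VEH groups, and the exact permutation p of the 6 past the filter was between 0.114 and 0.400. Of 16351 genes tested, 0.0% were called, and 7.91% reached an unadjusted p under 0.05. The standard errors leave room for differences well beyond 1 on the log2 scale in these genes, so the comparison does not show that the groups are alike.

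The interaction, taken as the effect of OGD in TIA cultures less its effect in vehicle cultures, was -1.76 ± 0.66 for Cxcl1 on the log2 scale (limma, unadjusted p = 0.0186, adjusted p = 0.722). It was -1.57 ± 1.03 for Cxcl10, -1.59 ± 1.12 for Ccl2, -1.55 ± 1.08 for Ccl7, 0.25 ± 0.35 for Cxcl12 and 0.92 ± 0.66 for Cx3cl1 (adjusted p = 0.722 to 0.832). No gene passed an adjusted p of 0.05 with the fold threshold among 16313 (0.0%), and 6.06% had an unadjusted p under 0.05. An OGD effect that passed the test with vehicle and not with TIA is thus not shown to differ between the arms.

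The 4 induced chemokines ranked the 8 OGD cultures in nearly the same way. For 4 of 4 genes the 3 highest cultures were OGD-VEH 10, 11 and 12, the next was OGD-TIA 16, and the one after it OGD-TIA 14. The 3 lowest were OGD-VEH 9 and OGD-TIA 13 and 15 for 4 of 4 genes. The genes share libraries, so their order is not 4 separate observations.

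The same cultures differed in cell type markers. The sum of 10 neuronal markers was 2853 to 3443 FPKM in CONTROL-VEH, and after OGD it was lowest in OGD-VEH 12 (1271 FPKM), OGD-TIA 16 (1702), OGD-VEH 11 (1830) and OGD-VEH 10 (1906), against 2556 to 2818 FPKM in the other 4 OGD cultures. The sum of 8 oligodendrocyte lineage markers was 177 to 213 FPKM in CONTROL-VEH, 244 FPKM in OGD-VEH 9 and 526 to 676 FPKM in OGD-VEH 10 to 12. In OGD-TIA it was 225 to 277 FPKM in cultures 13 to 15 and 438 FPKM in culture 16. The sum of 10 astrocyte markers was 813 to 1690 FPKM in CONTROL-VEH, 1089 to 2734 in OGD-VEH and 825 to 2076 in OGD-TIA. The part of these shifts in the chemokine levels was not tested.

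**Figure D4:**
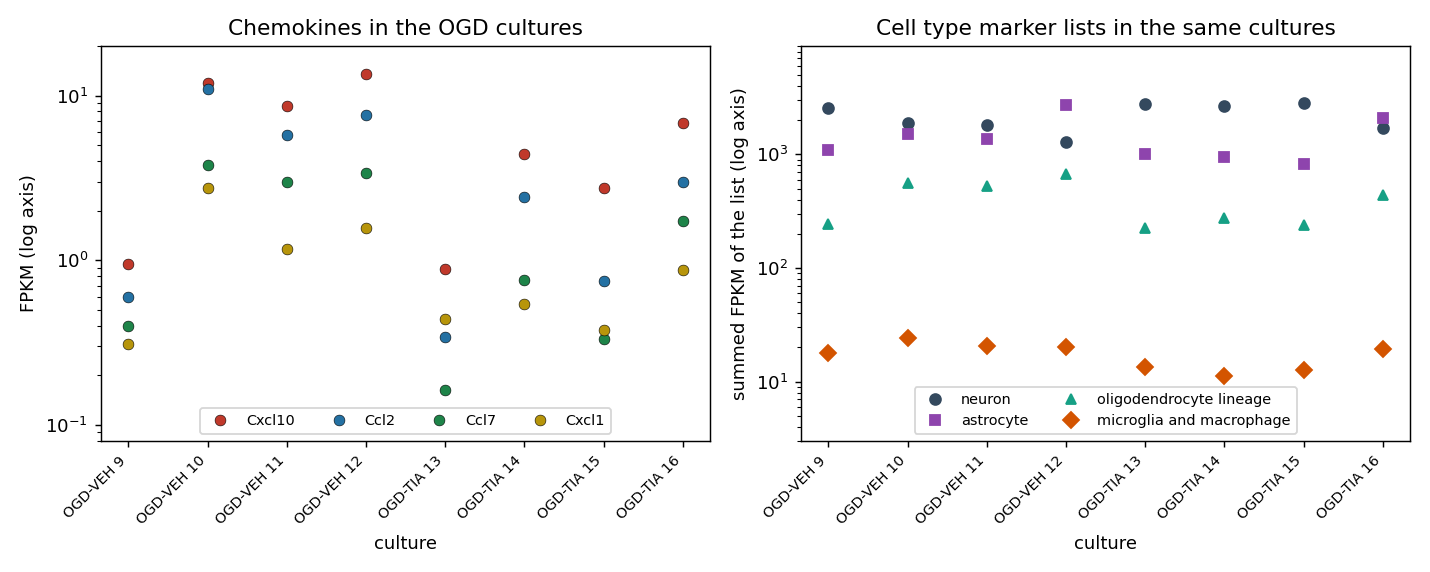
Left, FPKM (log axis) of Cxcl10, Ccl2, Ccl7 and Cxcl1 in the 8 OGD cultures. Right, the summed FPKM (log axis) of 4 cell type marker lists in the same cultures. OGD-VEH 10 to 12 and OGD-TIA 16 have the 4 highest values of each chemokine and the 4 lowest neuronal sums, from 1271 to 1906 FPKM.

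Immune and vascular cells, which can make these chemokines, were scarce by their markers. Of 13 microglia and macrophage markers, 3 reached a mean of 0.5 FPKM over the 16 cultures, Aif1 and Cd68 among them, and the defining markers Cx3cr1, Csf1r, Tmem119, C1qa and Ptprc averaged under 0.1 FPKM in each group. The summed level was 11.5 to 14.9 FPKM in CONTROL-VEH, 17.7 to 24.4 in OGD-VEH, 12.8 to 14.9 in CONTROL-TIA and 11.2 to 19.2 in OGD-TIA. Within the list, Cd68, a lysosomal protein, rose from 2.53 to 12.1 FPKM on average after OGD with vehicle (log2 fold change 2.34 ± 0.33, limma, adjusted p = 0.0281). The 7 endothelial markers summed to 0.547 to 0.742 FPKM in CONTROL-VEH, 0.766 to 2.25 in OGD-VEH, 0.487 to 0.960 in CONTROL-TIA and 0.695 to 1.465 in OGD-TIA. Among them Flt1, under the filter, averaged 0.047 FPKM in CONTROL-VEH and 0.817 in OGD-VEH with no overlap, while Cldn5 and Cdh5 were listed at 0 in all OGD-VEH cultures. The part of these cells in the chemokine results was not tested. The 8 T cell and neutrophil markers summed to 0.047 to 0.519 FPKM in any culture. The 8 mural and fibroblast markers summed to 12.2 to 18.3 FPKM in CONTROL-VEH and 7.39 to 11.8 FPKM in OGD-VEH, of which Dcn averaged 11.8 and 5.56 FPKM. The labelled neurons were present by all 10 neuronal markers, beside astrocyte and oligodendrocyte lineage markers.

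The main signalling receptors of the induced chemokines were at or near 0. Cxcr3, the receptor of CXCL10, and Ccr2, that of CCL2 and CCL7, were listed at 0 in all 16 cultures, and Cxcr2, that of CXCL1 and CXCL2, reached at most 0.015 FPKM. Ccr1 and Ccr3, which also bind CCL7, reached at most 0.031 and 0.035 FPKM. Cx3cr1, the receptor of fractalkine, reached at most 0.020 FPKM. Of the 23 receptor genes, 4 passed the filter in OGD-VEH against CONTROL-VEH and 0 were called, against 4.09% of all genes in either direction. Cxcr4, the signalling receptor of CXCL12, averaged 4.49 ± 2.92 FPKM in CONTROL-VEH and 7.20 ± 4.45 in OGD-VEH (limma, log2 fold change 0.68 ± 0.47, adjusted p = 0.325). Ackr3, which scavenges CXCL12, averaged 2.72 ± 0.65 and 3.61 ± 0.98 FPKM (0.39 ± 0.25, adjusted p = 0.286). Ackr1, which binds many inflammatory chemokines without signalling, averaged 111 ± 14.1 FPKM in CONTROL-VEH and 74.6 ± 24.3 in OGD-VEH. It had the smallest p (limma, -0.63 ± 0.23, adjusted p = 0.0922), but its annotation shares 493 bases with Cadm3 on the same strand, so its level is uncertain.

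Of 28 other chemokine genes, 5 passed the filter and 0 were called in OGD-VEH against CONTROL-VEH. Ccl27a averaged 268 ± 28.3 FPKM in CONTROL-VEH and 140 ± 65.7 in OGD-VEH (limma, log2 fold change -1.08 ± 0.36, adjusted p = 0.0767). Near-identical copies of Ccl27a in the mouse genome and an overlap with Il11ra1 on the opposite strand make that level uncertain. Ccl25 averaged 14.3 ± 4.01 and 18.5 ± 6.94 FPKM (0.32 ± 0.31, adjusted p = 0.492), and Cxcl14 11.5 ± 1.09 and 12.3 ± 3.54 FPKM (0.06 ± 0.19, adjusted p = 0.843). Cxcl9 and Cxcl11, the other CXCR3 ligands, averaged at most 0.018 FPKM in any group, and Ccl12 was listed at 0 throughout.

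Genes that act on chemokine mRNA or protein were examined as a list of 11, of which 6 passed the filter and 0 were called with vehicle, against 4.09% of all genes. The count was 3, all higher, without OGD-VEH culture 9 and also with array quality weights, isoforms weighted by length or all 16 cultures in 1 fit. In that order, these fits called 1185 of 16366, 1141 of 16346, 606 of 16054 and 753 of 16346 genes higher. The 3 smallest p belonged to the Zfp36 family, RNA-binding proteins that speed the decay of AU-rich mRNAs. Zfp36 averaged 0.377 ± 0.080 FPKM in CONTROL-VEH and 1.85 ± 0.95 in OGD-VEH (limma, log2 fold change 1.81 ± 0.52, adjusted p = 0.0575). Zfp36 passed the filter only through OGD-VEH. Such a gene had to differ, so its p and the counts of this list are descriptions. Zfp36l2 had 1.03 ± 0.29 (adjusted p = 0.0578) and Zfp36l1 1.54 ± 0.47 (adjusted p = 0.0649). Over both arms 2 of the list were called higher by the same rule, Zfp36 and Zfp36l1, where 2.8% of 16313 genes were. Zfp36 averaged 0.436 FPKM in CONTROL-TIA and passed the filter there only through the OGD cultures. Adam10, which sheds fractalkine from the membrane, was at 36.9 ± 1.84 and 35.8 ± 2.04 FPKM.

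Among 27 NF-kappaB inducers and factors, 18 passed the filter, and 4 were called higher and 0 lower after OGD with vehicle. Of all genes 2.4% were called higher. The list's median log2 fold change was 0.50, beside 0.10 over all genes. Tnfrsf1a, the main TNF receptor, rose from 7.34 to 96.7 FPKM on average (log2 fold change 3.59 ± 0.40, limma, adjusted p = 0.0193). Nfkb2 and Relb, subunits of the noncanonical pathway, rose by 1.56 ± 0.40 and 1.27 ± 0.30 (adjusted p = 0.0485 and 0.0437), and Nfkbiz, a nuclear cofactor, by 1.55 ± 0.37 (adjusted p = 0.0447). Il1r1, the IL-1 receptor, had 2.21 ± 0.62 (adjusted p = 0.0559). Il1r1 averaged 0.412 FPKM in CONTROL-VEH and passed the filter only through OGD-VEH. Such a gene had to differ, so its p and the median of this list are descriptions. The cytokine genes Tnf, Il1a, Il1b and Il6 averaged at most 0.316 FPKM in any group.

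Among 27 interferon and STAT genes, 17 passed the filter, and 3 were called higher and 0 lower with vehicle. Of all genes the same 2.4% were called higher, and the list median was 0.67. The guanylate-binding protein genes Gbp2 and Gbp3 rose by 4.35 ± 0.63 and 2.30 ± 0.44 on the log2 scale (limma, adjusted p = 0.0281 and 0.0339). The transcription factor gene Irf1 rose by 1.20 ± 0.24 (adjusted p = 0.0356). Gbp2 and Gbp3 averaged 0.222 and 0.483 FPKM in CONTROL-VEH and passed the filter only through OGD-VEH. Such genes had to differ, so the count and the median of this list are descriptions. Ifnb1 and Ifng averaged at most 0.047 FPKM, and the interferon targets Isg15, Ifit1, Mx1, Usp18, Oasl2 and Ifi44 averaged at most 0.240 FPKM in any group. Of the other targets on the list, Ifit2, Ifit3 and Bst2 averaged 2.47, 0.303 and 0.292 FPKM in CONTROL-VEH and 4.31, 0.848 and 1.07 FPKM in OGD-VEH, and none was called (limma, adjusted p = 0.186, 0.327 and 0.130). Rsad2, under the filter, averaged 0.056 and 0.306 FPKM, and its groups did not overlap.

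Among 13 AP-1 and immediate early factors, 11 passed the filter, and 5 were called higher and 0 lower with vehicle. Of all genes 2.4% were called higher, and the list median was 0.86. Fosl1 rose by 4.98 ± 0.60 on the log2 scale, from 0.112 to 6.32 FPKM on average (limma, adjusted p = 0.0266). Atf3 rose by 2.54 ± 0.53, Fos by 2.12 ± 0.44, Cebpd by 2.04 ± 0.39 and Cebpb by 1.17 ± 0.27 (adjusted p = 0.0340 to 0.0421). Fosl1, Atf3 and Cebpd averaged 0.112, 0.287 and 0.247 FPKM in CONTROL-VEH and passed the filter only through OGD-VEH. Such genes had to differ, so the count and the median of this list are descriptions. In the fits that left out 1 CONTROL-VEH culture or OGD-VEH culture 10, 11 or 12, 0 or 1 gene of each of these 3 lists was called. Those fits called 1 to 43 genes higher in all. Without OGD-VEH culture 9 the counts were 6, 5 and 6, where 1185 of 16366 genes were called higher.

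As a description, the genes whose log2 level was most like each member over the 16 cultures were found by Pearson correlation among genes past the filter, with no test, since all points share libraries and group differences. Nearest to Cxcl10 were Id1 (r = 0.976), Ptgr1, Gbp2, Cd44 and Ptgs2, and nearest to Ccl2 were Lrig3 (r = 0.977), Akna, Ptbp1, Sall3 and Gtse1. Ccl7 was most like Cd1d1 (r = 0.967), Kif18b, Cebpd, Dusp10 and 4930503L19Rik, and Cxcl1 most like Csf1 (r = 0.972), Kdm3b, 0610030E20Rik, Steap1 and Cdk7. Cx3cl1 was most like Elavl2 (r = 0.945), Necab1, Prickle1, Mctp1 and Gabrb2, and Cxcl12 most like Cntn3 (r = 0.961), Map3k9, Gm45591, Lrrc55 and Tmem108.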

How the data were processed

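RNA of 16 primary cortical neuron cultures, 4 per group, was sequenced as stranded mRNA libraries with 50-base single-end reads. According to the methods, reads were mapped with STAR to GRCm38 with the Ensembl annotation and isoforms quantified with eXpress by a service provider. The deposited values are FPKM per isoform after TMM scaling by the authors, a unit taken from the file's own name. Of 135276 lines, 74 had no identifier and were left out. DESeq2, which the authors ran on counts, was not applied to FPKM.

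The FPKM of all isoforms were summed per gene symbol, 0.1 was added and log2 taken, so fold changes of low genes are understated. Genes averaging 0.5 FPKM or more across the cultures of a comparison were tested with limma 3.58.1 in R 4.3.3 (empirical Bayes with a mean trend), adjusted by Benjamini-Hochberg over all genes. A call needed an adjusted p no greater than 0.05 together with a log2 fold change outside -1 to 1, as in the study. Single levels (log2 of FPKM + 0.1) were compared by exact permutation tests, two-sided, on the 70 assignments of 8 cultures, 10 members in each of 4 comparisons, unadjusted. P-values measure the spread between these cultures. For members under the filter, limma values come from a fit without it.

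On simulated data for OGD-VEH against CONTROL-VEH (16313 genes, 200 changed, 5 draws), 78 to 93% of changes of 2 and 86 to 97% of changes of 3 on the log2 scale were called, with at most 5 false calls. These percentages describe the simulated data only. Recovery at the spread of the measured OGD-VEH cultures was not tested. Depth was estimated from the most common value of 1 read in single-isoform genes, because the table holds no counts. Read numbers given in the text are therefore estimates and carry no interval. Positions came from GENCODE M21 (99.8% of isoforms found) and promoters from RefSeq on GRCm38.p6.

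All 10 members are named. From each related list every gene called with vehicle was named, or the smallest p until 3 were, and for members with a mean of at least 0.5 FPKM the 5 genes most like them. Other genes named, such as receptors, cytokines and interferon targets, were chosen after their values were seen. Some genes of the lists are not reported here. The members, lists and tests were chosen with earlier results of these data known. Alternatives covered pseudocount, filter, scaling, variance model, isoforms and left-out cultures. Python 3.11.15 was used for the rest.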

Additional observations from a re-analysis of the deposited data

Results flagged for a closer look

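In 37 sets of 4 cultures (a member in a group, where values varied), 4 held a culture far from the other 3 by Dixon's criterion at the 95% level, which chance does in about 5% of sets. Cxcl2 in OGD-VEH culture 12 stood at 0.802 FPKM, above 0.131 to 0.208 FPKM in the other 3. The others concern Ccl3 at the level of single reads: CONTROL-VEH culture 4 was at 0.192 FPKM and CONTROL-TIA culture 5 at 0.085 FPKM where the other cultures of the group were listed at 0, and OGD-TIA culture 15 was listed at 0 where the others were at 0.085 to 0.094 FPKM. For the 4 genes called after OGD, culture 9 did not meet this criterion in OGD-VEH, although it was the lowest of its group for each.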

How the results depend on the processing

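With vehicle, 4 members were called after OGD. The count was 0 without a filter on low values, where 53679 genes were tested, 0 with the isoform of the highest mean alone, and 2 (Cxcl10 and Ccl2) with a mean of at least 2 FPKM, which leaves Cxcl1 and Ccl7 untested. Leaving out 1 culture gave 0 to 5. The other settings gave 3 to 5, namely 3 with a pseudocount of 1, a pseudocount of 0.01, median-ratio scaling, robust empirical Bayes or isoforms weighted by length (an alternative chosen after seeing the data), and 5, Cx3cl1 (lower) included, with array quality weights or all 16 cultures in 1 fit. Over both arms, 4 were called, 2 with a pseudocount of 1 and 2 with a mean of at least 2 FPKM, and 3 to 5 when 1 culture was left out. With array quality weights 1 member was called where otherwise 0 were, in OGD-TIA against CONTROL-TIA (Cxcl10), in OGD-TIA against OGD-VEH (Ccl7, lower) and in the interaction (Cxcl1). The cause was not tested. In 3 cases a small log2 value changed sign when 1 culture was left out. Cx3cl1 in CONTROL-TIA against CONTROL-VEH ranged from -0.12 (without CONTROL-VEH culture 2) to 0.29 and was -0.02 without CONTROL-TIA culture 8, and the interaction for Cxcl12 ranged from -0.064 (without OGD-VEH culture 12) to 0.39. No called fold change changed sign. No paired analysis was possible because cultures are numbered 1 to 16 across the groups, which share no number, and no label pairs them. Few reads in control cultures limit the size of each fold, and 4 cultures per group limit the exact tests to p = 0.0286.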
